A study of Homo sapiens with 8 samples.

Results

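The genes described here copy DNA in S phase or supply the nucleotides for it. They were chosen by symbol, current or former, as 52 genes for origin recognition, helicase loading, the clamp and its loader, the polymerases, lagging strand work, fork protection, chromatin assembly and nucleotide synthesis, out of 16912 named genes on the array. A named probe was found for 51 of them, 48 were bright enough to be tested among 9449 genes, and POLD2 was not analysed here. The probes of CLSPN, DBF4 and GINS1 lay between 5.58 and 6.07 log2, under the filter level of 6.08, and they enter no count. The series looked for genes whose mRNA responds to loss of VRK1, a serine/threonine kinase of the nucleus, in 2 human cancer cell lines. RNA was hybridised to 8 Illumina bead arrays. Of the breast adenocarcinoma line MDA-MB-231, 2 samples received siVRK1 and 2 a scrambled control siRNA, and the same 4 samples were made from the fibrosarcoma line HT1080. Every culture had 24 h in DMEM with gentamicin and 10% serum, received siRNA with Lipofectamine RNAiMAX, and was left for a further 42 h. A single VRK1 siRNA, number 308, was used, so its effects on other targets cannot be told apart from those of VRK1 loss. The labels do not say that replicates were separate cultures, so the p-values reflect the spread among the samples at hand, possibly technical in origin.

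Replication origins are bound by the origin recognition complex (ORC), which with CDC6 and CDT1 loads the MCM2 to MCM7 helicase ring in G1. In S phase the kinase CDC7 with DBF4 starts the helicase, which moves with CDC45 and the GINS proteins, while the sliding clamp PCNA, placed by the RFC loader, holds the polymerases on DNA. Many of these genes are known targets of E2F transcription factors and reach high mRNA levels around the start of S phase, whereas most mitotic genes peak later through CHR promoter elements and NF-Y.

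VRK1 itself was checked first. MDA-MB-231 cells had 6.23 and 6.74 log2 with siVRK1, against 7.93 and 7.61 with control siRNA. HT1080 cells had 6.57 and 6.51 with siVRK1, against 7.84 and 7.88 with control siRNA. Its mRNA fell by 1.28 on the log2 scale in MDA-MB-231 cells (limma adjusted p = 0.0117) and by 1.32 in HT1080 cells (limma adjusted p = 0.024). With MDA-MB-231 fitted alone the limma adjusted p in that line was 0.292, and without either HT1080 control array it was 0.0519. Without any 1 of the HT1080 arrays the HT1080 p reached 0.338, also from limma. Both lines expressed VIM, a mesenchymal filament, at 11.39 to 12.13 log2 on all arrays. Epithelial keratins went different ways. KRT19 read 5.63 to 5.80 log2 in HT1080 and 10.74 to 11.18 in MDA-MB-231, KRT8 was above the filter level in both lines, at 7.41 to 7.63 in HT1080 and 8.95 to 9.52 in MDA-MB-231, and KRT18 was near equal, at 7.31 to 7.51 in HT1080 and 7.29 to 7.65 in MDA-MB-231. KRT7 was the 1 marker called after siVRK1, of 10 tested. It read 10.14 and 9.90 on the siVRK1 arrays against 9.23 and 9.27 on the control arrays of MDA-MB-231, where it rose by 0.77 (limma adjusted p = 0.0172), and 5.83 to 6.01 in HT1080. The part of the KRT7 change in the results was not tested. SPARC, a matrix protein, read 10.27 to 10.45 in HT1080 and 5.64 to 5.73 in MDA-MB-231. Probes for ESR1, PGR, EPCAM, PTPRC, CD3E and CDH5 stayed between 5.45 and 6.01 log2, as did those for FN1, a matrix protein on the mesenchymal list. CDH1, on the epithelial list, read 5.61 to 5.77 in HT1080 and 5.99 and 5.91 on the control arrays of MDA-MB-231. It passed the filter only through the siVRK1 arrays of that line, at 6.17 and 6.14. CD44, on the mesenchymal list, read 11.92 to 13.05 over both lines on its brightest probe. The endothelial marker PECAM1 was just above the filter, at 6.16 to 6.66 over both lines, and the receptor gene ERBB2 read 8.03 to 8.48 on its 1 probe above the filter. Replicates differed more in MDA-MB-231, where the SD of the difference between replicates over genes was 0.239 log2 for siVRK1 and 0.269 for control, than in HT1080, where it was 0.181 and 0.175.

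After VRK1 siRNA, PCNA fell in MDA-MB-231, and PCNA, GINS2 and MCM10 fell on the average over both lines. No other tested replication gene was called. In MDA-MB-231, 1 of the 48 tested genes, PCNA, was called lower at a limma adjusted p under 0.05, against 0.519% of all genes tested, and none was called higher. In HT1080 limma called 0 of the 48 in either direction, against 0.307% of all genes. There 7 had an unadjusted p under 0.05, all of them lower, against 5.45% of all genes lower at that level. In MDA-MB-231 the same count was 8, against 6.33%. On the average over both lines 3 were called, PCNA, GINS2 and MCM10, all lower, against 1.58% of all genes called lower. The median log2 change of the 48 was -0.14 in MDA-MB-231, -0.12 in HT1080 and -0.11 on the average, beside 0.00 over all genes tested in each case. A negative change was measured for 36 genes in MDA-MB-231 and 38 in HT1080, or 75% and 79.2%, beside 49.3% and 49.4% of all genes. It was negative in both lines for 31, or 64.6%, beside 28.8% of all genes. In RNA from bulk cultures, fewer cells in S phase and less RNA per cell cannot be told apart.

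**Figure D1:**
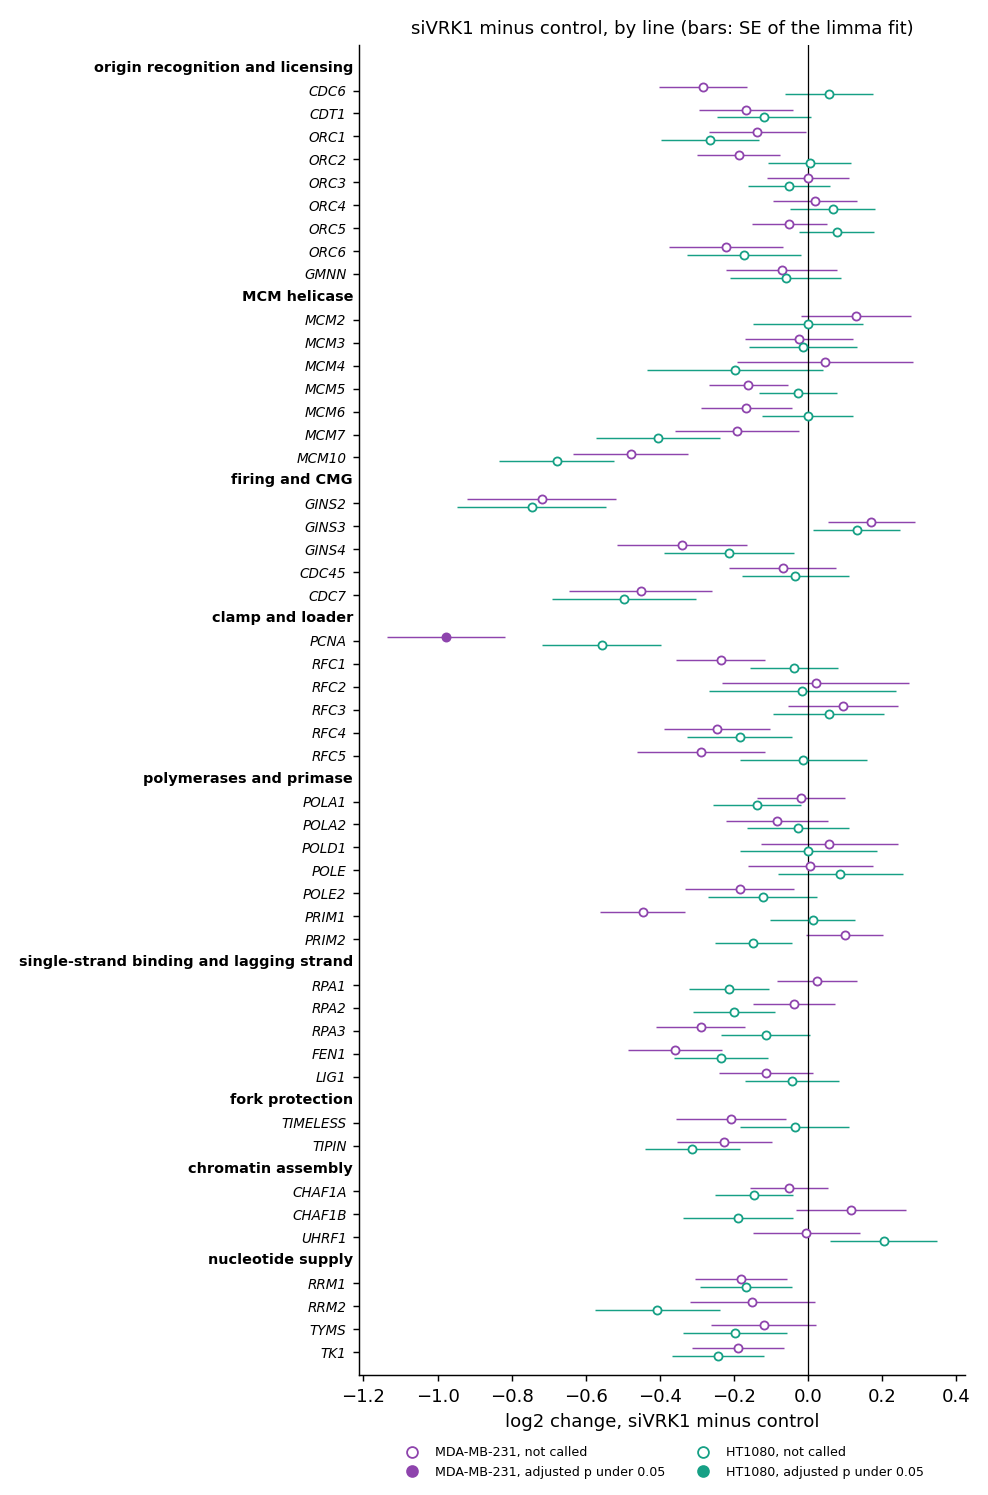
Log2 change (siVRK1 minus control, horizontal axis) of the 48 tested genes, grouped by role down the page, with the standard error of the limma fit as bars; purple is MDA-MB-231, green is HT1080 and filled points have an adjusted p under 0.05. PCNA in MDA-MB-231 is the only filled point, at -0.98, and GINS3 lies furthest right in that line, at 0.17.

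The 2 control arrays of MDA-MB-231 disagreed, and the changes in that line depended on which of them was used. Control array 1 of that line read higher than control array 2 for 41 of the 48 genes, by a median of 0.28 log2, beside 0.01 over all genes tested. Without that array the median change in MDA-MB-231 was -0.0098 with 25 of 48 genes negative, and without control array 2 it was -0.27 with 42 negative. In HT1080 the median stayed between -0.12 and -0.10 whichever array was left out. Pairs of single arrays show the same dependence. For siVRK1 array 1 the median difference over the 48 genes was -0.29 against control array 1 and -0.02 against control array 2 of MDA-MB-231. For siVRK1 array 2 it was -0.24 and 0.02 against the same arrays. In HT1080 the pairs lay between -0.13 and -0.10. Over 30 G2/M and mitosis genes, a list whose values were already known, every pair was below 0, with medians of -0.69 to -0.22 in MDA-MB-231 and -0.45 to -0.38 in HT1080. Those genes too were higher on control array 1, for 26 of 30 and by a median of 0.25 log2. With 2 control arrays the values cannot tell whether array 1 read high or array 2 read low. The cause of the gap between them was not tested.

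**Figure D2:**
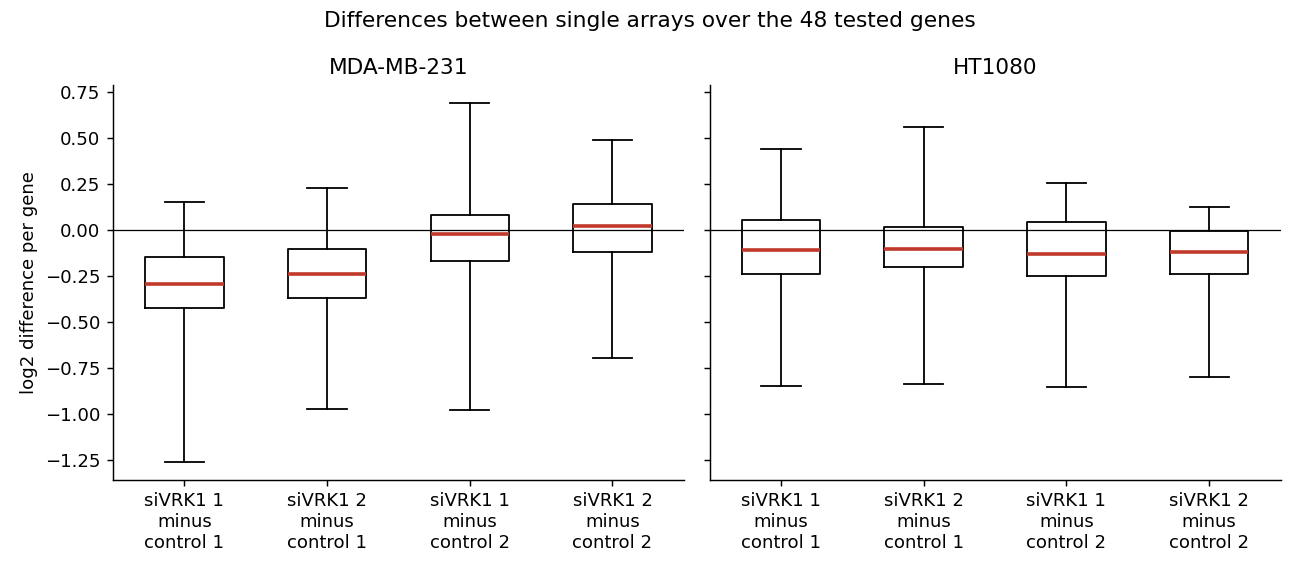
Log2 difference per gene (vertical axis) between each siVRK1 array and each control array of the same line, over the 48 tested replication genes; red lines are medians, boxes the quartiles and whiskers the lowest and highest gene. In MDA-MB-231 the medians are -0.29 and -0.24 against control array 1 but -0.02 and 0.02 against control array 2, and in HT1080 they lie between -0.13 and -0.10.

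The siVRK1 arrays both lay below both control arrays for 14 of the 48 genes in MDA-MB-231, against 18.8% of all genes, and above them for 0, against 20.4%. In HT1080 they lay below for 19 of 48, against 21.8% of all genes, and above for 3, against 23.2%. Both lines showed the lower order for 6 genes, or 12.5%, against 6.77% of all genes: PCNA, GINS2, MCM10, CDC7, FEN1 and TIPIN. Each gene was judged on its brightest kept probe. Dimmer probes of MCM7 and MCM10 did not all give the same order, and a dimmer MCM7 probe showed the lower order in both lines. No replication gene lay above control in both lines, against 6.97% of all genes.

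PCNA, the ring that tethers polymerases to DNA, had the largest fall among the tested replication genes in MDA-MB-231. PCNA signal was 9.08 and 9.37 log2 with siVRK1, against 10.34 and 10.06 with control siRNA, in MDA-MB-231. HT1080 cells had 9.61 and 9.28 with siVRK1, against 10.12 and 9.88 with control siRNA. Every siVRK1 array was below every control array of its line. PCNA fell by 0.98 on the log2 scale in MDA-MB-231 (SE 0.16, limma adjusted p = 0.0276), to 50.8% of the control signal. In HT1080 the log2 change was -0.56 (limma adjusted p = 0.257), and on the average over both lines PCNA fell by 0.77 (SE 0.11, limma adjusted p = 0.00941). The MDA-MB-231 call was kept without control array 2 or siVRK1 array 2 of that line and lost without any of the other 6 arrays, with limma adjusted p up to 0.121, and also lost with that line fitted alone (limma adjusted p = 0.292). The call on the average was lost without either HT1080 control array or HT1080 siVRK1 array 2, with limma adjusted p up to 0.078. A dimmer PCNA probe, at 6.03 to 6.59 log2, was also lower on average, by a log2 change of -0.36 that missed the threshold (limma adjusted p = 0.0532), and a further PCNA probe stayed at background level.

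GINS2, a subunit of the GINS complex in the moving helicase, read 7.80 and 8.05 log2 on the siVRK1 arrays of MDA-MB-231 and 9.00 and 8.29 on the control arrays. HT1080 cells had 8.40 and 8.45 with siVRK1, against 9.09 and 9.25 with control siRNA. Groups did not overlap in either line, and the HT1080 arrays lay closer together. The log2 change in MDA-MB-231 was -0.72 (limma adjusted p = 0.137), and the HT1080 change was -0.75 (limma adjusted p = 0.225). GINS2 fell on the average over both lines by 0.73 on the log2 scale (SE 0.14, limma adjusted p = 0.0322), to 60.2% of control. That call was lost without siVRK1 array 1 of MDA-MB-231 or any HT1080 array, with limma adjusted p up to 0.157, and with no filter on dim probes (limma adjusted p = 0.054). GINS2 passed the test in MDA-MB-231 only without control array 2 (limma adjusted p = 0.0204), where its log2 change was -1.08. Without control array 1 that change was -0.36 (limma adjusted p = 0.388). It passed in HT1080 when that line was fitted alone (limma adjusted p = 0.0182) and without either MDA-MB-231 control array (limma adjusted p = 0.0372).

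MCM10, which helps to activate the loaded helicase, read 8.74 and 9.12 log2 on the siVRK1 arrays of MDA-MB-231 and 9.55 and 9.27 on the control arrays. HT1080 cells had 8.75 and 8.95 with siVRK1, against 9.60 and 9.45 with control siRNA. On this brightest probe all siVRK1 arrays were below the control arrays of their line. On a second probe the MDA-MB-231 groups overlapped, at 7.13 and 7.52 for siVRK1 against 7.75 and 7.42 for control, while the HT1080 groups did not. The MDA-MB-231 log2 change of MCM10 was -0.48 (limma adjusted p = 0.198). Its HT1080 change was -0.68 (limma adjusted p = 0.135), and it fell on the average by 0.58 (SE 0.11, limma adjusted p = 0.0294). The call was lost without control array 1 or siVRK1 array 1 of MDA-MB-231 or any HT1080 array, with limma adjusted p up to 0.157, and when the gene's probes were averaged (limma adjusted p = 0.0587), where a second probe had an average change of -0.32. With HT1080 fitted alone MCM10 passed in that line (limma adjusted p = 0.0353).

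**Figure D3:**
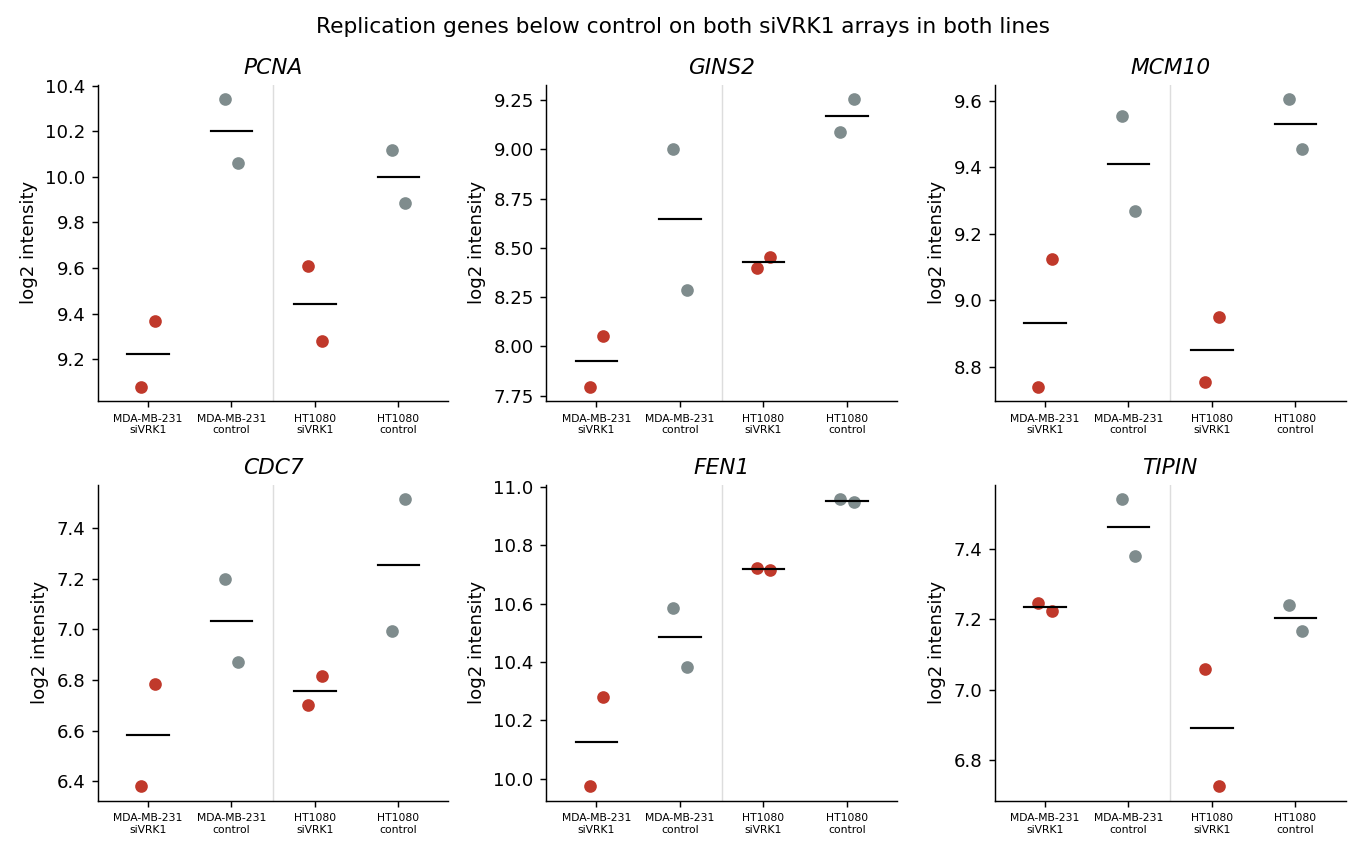
Log2 intensity (vertical axis, a separate scale per gene) on each array, from the brightest kept probe of each gene. Shown are the 6 replication genes whose siVRK1 arrays lay below the control arrays in both lines. Red points are siVRK1, grey points control, and black lines group means of 2 arrays. PCNA shows the widest gap in MDA-MB-231, 9.08 and 9.37 for siVRK1 against 10.34 and 10.06 for control.

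The remaining 3 genes of that set did not pass the test. CDC7, the kinase that starts origins, read 6.38 and 6.78 log2 on the siVRK1 arrays against 7.20 and 6.87 on the control arrays of MDA-MB-231, and its average change was -0.47 (limma adjusted p = 0.115). Its HT1080 values were 6.70 and 6.81 for siVRK1 against 6.99 and 7.51 for control. FEN1, the nuclease that trims lagging strand flaps, read 9.97 and 10.28 for siVRK1 against 10.59 and 10.38 for control in MDA-MB-231. In HT1080 FEN1 read 10.72 and 10.71 for siVRK1 against 10.96 and 10.95 for control, the narrowest groups among these genes, and its average change was -0.30 (limma adjusted p = 0.129). TIPIN, the partner of TIMELESS in fork protection, read 7.25 and 7.22 for siVRK1 against 7.54 and 7.38 for control in MDA-MB-231, and 7.06 and 6.73 for siVRK1 against 7.24 and 7.17 for control in HT1080, with an average change of -0.27 (limma adjusted p = 0.176).

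The MCM2 to MCM7 ring, which unwinds DNA, held no called gene, and the average log2 changes of its 6 genes ran from -0.30 to 0.06. MCM7 was lowest, with 10.05 and 10.54 log2 on the siVRK1 arrays against 10.58 and 10.39 on the control arrays of MDA-MB-231, groups that overlapped. In HT1080 MCM7 read 10.23 and 9.97 for siVRK1 against 10.56 and 10.46 for control, a change of -0.41 with no overlap (limma adjusted p = 0.431). On a dimmer MCM7 probe the siVRK1 arrays lay below control in both lines, with an average change of -0.32 (limma adjusted p = 0.199). On the dimmest MCM7 probe the average change was -0.07. MCM2 was highest, at 8.09 and 8.28 for siVRK1 against 8.26 and 7.86 for control in MDA-MB-231 and 9.15 and 8.96 for siVRK1 against 9.00 and 9.11 for control in HT1080. MCM6 read 10.24 and 10.30 for siVRK1 against 10.59 and 10.28 for control in MDA-MB-231, and 10.64 and 10.51 for siVRK1 against 10.57 and 10.58 for control in HT1080. MCM4 had an average change of -0.08, but -0.29 on a dimmer probe. Groups of MCM2 and of MCM6 overlapped in both lines.

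Origin recognition and licensing genes had average changes from -0.20 to 0.04, and none of the 9 was called. ORC1 to ORC6 form the origin complex, and GMNN, which blocks relicensing by CDT1, had an average change of -0.07. CDC6, which helps to load the helicase, read 6.18 and 6.45 log2 for siVRK1 against 6.58 and 6.62 for control in MDA-MB-231. In HT1080 it read 6.34 and 6.20 for siVRK1 against 6.21 and 6.22 for control. It lay below control in MDA-MB-231 alone, and all its values are near the filter level. Of the 5 tested helicase partners and firing genes, GINS3 was the highest, with a log2 change of 0.17 in MDA-MB-231 and 0.13 in HT1080. GINS4 had an average change of -0.28 and CDC45 of -0.05. GINS3 read 7.44 and 7.25 for siVRK1 against 7.28 and 7.06 for control in MDA-MB-231, which overlap, and 8.10 and 8.04 for siVRK1 against 7.94 and 7.94 for control in HT1080, which do not.

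Among the RFC subunits, which load the clamp, no call was made. Average changes on the brightest kept probes ran from -0.22 for RFC4 to 0.07 for RFC3. Other kept probes gave -0.02 for RFC4 and -0.10 for RFC3, so the order of these genes depends on the probe. RFC3 read 7.40 and 7.36 log2 on the siVRK1 arrays against 7.49 and 7.08 on the control arrays of MDA-MB-231, and 8.56 and 8.44 for siVRK1 against 8.31 and 8.58 for control in HT1080. Both pairs of groups overlapped. The polymerase and primase genes had average changes from -0.22 to 0.05, and none was called. POLE, the leading strand polymerase, read 7.21 and 7.53 for siVRK1 against 7.30 and 7.42 for control in MDA-MB-231, and 7.98 and 7.54 for siVRK1 against 7.54 and 7.81 for control in HT1080. Its replicates were further apart than its group means.

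Single-strand binding and lagging strand genes had average changes of -0.30 to -0.08, and all 5 were negative. RPA1, RPA2 and RPA3, which coat single-stranded DNA, had -0.10, -0.12 and -0.20, and LIG1, which seals nicks, had -0.08. TIMELESS, a fork protection gene, had an average change of -0.12. UHRF1, which guides maintenance methylation behind the fork, had the highest change in HT1080, 0.20, with 6.55 and 6.32 log2 for siVRK1 against 6.17 and 6.29 for control. In MDA-MB-231 UHRF1 read 6.37 and 6.48 for siVRK1 against 6.62 and 6.24 for control. The groups separated in HT1080 alone, and the values are near the filter level. The chromatin assembly factor gene CHAF1A had an average change of -0.10.

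The nucleotide supply genes were RRM1 and RRM2, the subunits of ribonucleotide reductase, TYMS, which makes thymidylate, and TK1, which salvages thymidine. All 4 had negative changes in both lines, and none was called. In HT1080 the siVRK1 arrays lay below control for all 4, against 21.8% of all genes. In MDA-MB-231 they did so for none, against 18.8%. Limma called no difference between lines among the 4 genes. RRM2 read 8.32 and 8.09 log2 on the siVRK1 arrays and 8.49 and 8.74 on the control arrays of HT1080, a log2 change of -0.41 (limma adjusted p = 0.431). In MDA-MB-231 RRM2 read 8.06 and 8.27 for siVRK1 against 8.55 and 8.08 for control, which overlap. TK1 read 9.17 and 9.04 for siVRK1 against 9.32 and 9.38 for control in HT1080, and its average change was -0.22 (limma adjusted p = 0.269). TYMS and RRM1 had average changes of -0.16 and -0.17. Of 29 other nucleotide supply genes, 23 were tested and none was called, with a median average change of -0.02. The lowest were SHMT1 at -0.18 and CTPS1 at -0.12, and the highest GART at 0.25 and DUT at 0.18.

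Promoter sequences of the replication genes were set beside these values, since E2F factors are known to drive many of them. RefSeq windows on GRCh38.p14, from 250 bases before to 50 bases after each start, were found for 47 of the 52 genes, 62 windows in all. Searched on both strands with overlaps counted, the E2F letters were TTCCCGC with its relatives TTCGCGC and also TTGCCGC as well as TTGGCGC. The CHR letters were TTTGAA and further TTTAAA, while the NF-Y letters were CCAAT. E2F letters were in 62.9% of the replication windows, beside 25.8% of 31 windows of G2/M and mitosis genes and 13.0% of all 35116 windows. CHR letters were in 11.3%, beside 77.4% and 24.0%, and NF-Y letters in 56.5%, beside 80.6% and 34.6%. The 6 genes with CHR letters were RRM1, RRM2, TK1, PRIM2, CDC45 and DBF4. A match is a description and not a bound site, and windows of 1 gene can overlap.

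**Figure D4:**
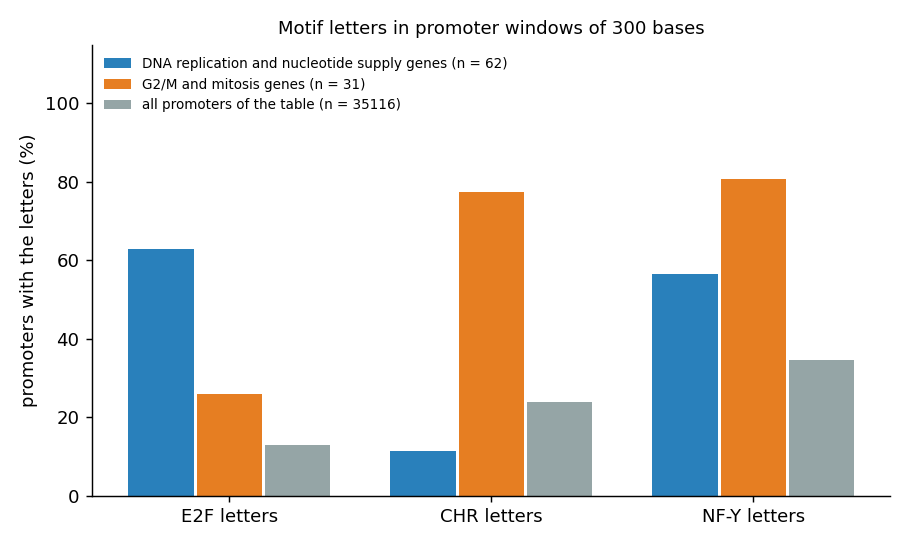
Share of promoter windows (percent, vertical axis) that hold the E2F, CHR or NF-Y letters, for replication genes (62 windows), G2/M and mitosis genes (31) and all RefSeq windows (35116). E2F letters are in 62.9% of replication windows and CHR letters in 77.4% of G2/M and mitosis windows.

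The windows of the 3 genes that fell on average are printed first, followed by 2 helicase genes, MCM2 and MCM6, that were not called and carry E2F letters. MCM2 had an average change of 0.06 and MCM6 of -0.08, beside a median of -0.11 over the 48 genes. The choice of windows was made with the values in view. Capitals mark the E2F and NF-Y letters on either strand, and each run reads 5′ to 3′ on the strand of the gene. They lie at chr20:5126573-5126872 on the minus strand for PCNA, chr16:85688905-85689204 on the minus strand for GINS2, chr10:13161308-13161607 on the plus strand for MCM10, chr3:127598161-127598460 on the plus strand for MCM2 and chr2:135876394-135876693 on the minus strand for MCM6.
PCNA: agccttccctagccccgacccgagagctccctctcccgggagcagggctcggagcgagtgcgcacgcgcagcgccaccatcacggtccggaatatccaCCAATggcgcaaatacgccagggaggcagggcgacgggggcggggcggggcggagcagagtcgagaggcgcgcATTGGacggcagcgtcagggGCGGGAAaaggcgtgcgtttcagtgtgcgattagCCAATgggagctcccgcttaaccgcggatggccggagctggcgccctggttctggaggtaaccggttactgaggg
GINS2: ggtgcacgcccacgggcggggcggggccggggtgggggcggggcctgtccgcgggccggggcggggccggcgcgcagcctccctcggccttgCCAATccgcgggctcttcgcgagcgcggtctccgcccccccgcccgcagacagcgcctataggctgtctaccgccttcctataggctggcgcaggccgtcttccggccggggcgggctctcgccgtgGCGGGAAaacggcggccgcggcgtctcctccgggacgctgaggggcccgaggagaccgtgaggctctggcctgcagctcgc
MCM10: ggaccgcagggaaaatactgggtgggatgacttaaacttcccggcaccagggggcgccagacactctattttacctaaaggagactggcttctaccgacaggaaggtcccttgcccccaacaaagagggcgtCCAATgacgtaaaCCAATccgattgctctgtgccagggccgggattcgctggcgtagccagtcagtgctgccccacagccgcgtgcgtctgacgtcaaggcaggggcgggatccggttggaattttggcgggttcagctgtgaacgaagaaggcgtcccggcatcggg
MCM2: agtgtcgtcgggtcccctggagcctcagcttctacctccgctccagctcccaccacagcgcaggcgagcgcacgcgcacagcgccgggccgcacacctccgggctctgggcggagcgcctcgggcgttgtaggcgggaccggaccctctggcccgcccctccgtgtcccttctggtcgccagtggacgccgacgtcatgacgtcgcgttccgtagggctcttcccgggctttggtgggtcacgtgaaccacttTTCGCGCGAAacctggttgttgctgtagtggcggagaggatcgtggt
MCM6: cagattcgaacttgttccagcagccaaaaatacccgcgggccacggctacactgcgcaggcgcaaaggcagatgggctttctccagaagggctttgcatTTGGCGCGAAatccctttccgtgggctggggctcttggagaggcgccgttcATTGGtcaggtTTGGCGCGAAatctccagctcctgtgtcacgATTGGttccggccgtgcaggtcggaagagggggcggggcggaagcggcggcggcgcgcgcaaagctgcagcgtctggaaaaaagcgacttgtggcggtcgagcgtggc

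The PCNA window holds 1 E2F match at base -59 from the start and 3 NF-Y matches, and a second PCNA window, not printed, holds no E2F letters. GINS2 has 1 E2F match at base -31 and 1 NF-Y match. MCM10 has 2 NF-Y matches, and none of the E2F letters searched is in this window. MCM2 has 2 overlapping E2F matches and no NF-Y letters. MCM6 has 4 E2F matches, in overlapping pairs, and 2 NF-Y matches. E2F letters thus occur in windows of genes that fell and of genes that were not called, and their absence from the MCM10 window says only that these letters are not there.

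Whether the response differed between lines was tested directly, as the HT1080 change minus the MDA-MB-231 change. Limma called 0 of the 48 genes, against 0% of all genes tested, and 1 replication gene had an unadjusted p under 0.05, against 6.16% of all genes. The median difference was 0.01, but it was -0.15 without MDA-MB-231 control array 1 and 0.16 without control array 2. PRIM1, the primase subunit that makes RNA primers, was that gene. PRIM1 read 9.35 and 9.36 log2 for siVRK1 against 9.31 and 9.38 for control in HT1080, and 8.20 and 8.17 for siVRK1 against 8.77 and 8.50 for control in MDA-MB-231. Its siVRK1 arrays were below control in MDA-MB-231 alone, and the difference was 0.46 (SE 0.16, limma adjusted p = 0.751). PCNA had a difference of 0.42 (SE 0.23, limma adjusted p = 0.818) and CDC6 of 0.34. On the other side CHAF1B, a chromatin assembly subunit, had -0.31, with 6.78 and 7.03 for siVRK1 against 7.23 and 6.95 for control in HT1080 and 6.98 and 6.80 for siVRK1 against 6.91 and 6.64 for control in MDA-MB-231. RRM2 had -0.26. PRIM2, the large primase subunit, passed the filter through MDA-MB-231 alone, at 6.18 and 6.33 for siVRK1 against 6.12 and 6.20 for control, and its HT1080 arrays lay under the filter level, at 5.86 to 6.02, so no difference between lines is given for it. None of these differences passed the test.

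Control HT1080 cells differed from control MDA-MB-231 cells for 24 of the 48 genes, or 50%, at a limma adjusted p under 0.05, against 53.7% of all genes tested. Of these 15 were higher, against 26.2% of all genes, and 9 lower, against 27.5%. The median difference was 0.13 log2, beside 0.00 over all genes. It was 0.22 without MDA-MB-231 control array 1 and -0.02 without control array 2. The count of 24 fell to 13 without HT1080 control array 1 and 14 without control array 2. The share called was thus near that of all genes. Each tissue is represented by 1 line, so line and tissue cannot be told apart.

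**Figure D5:**
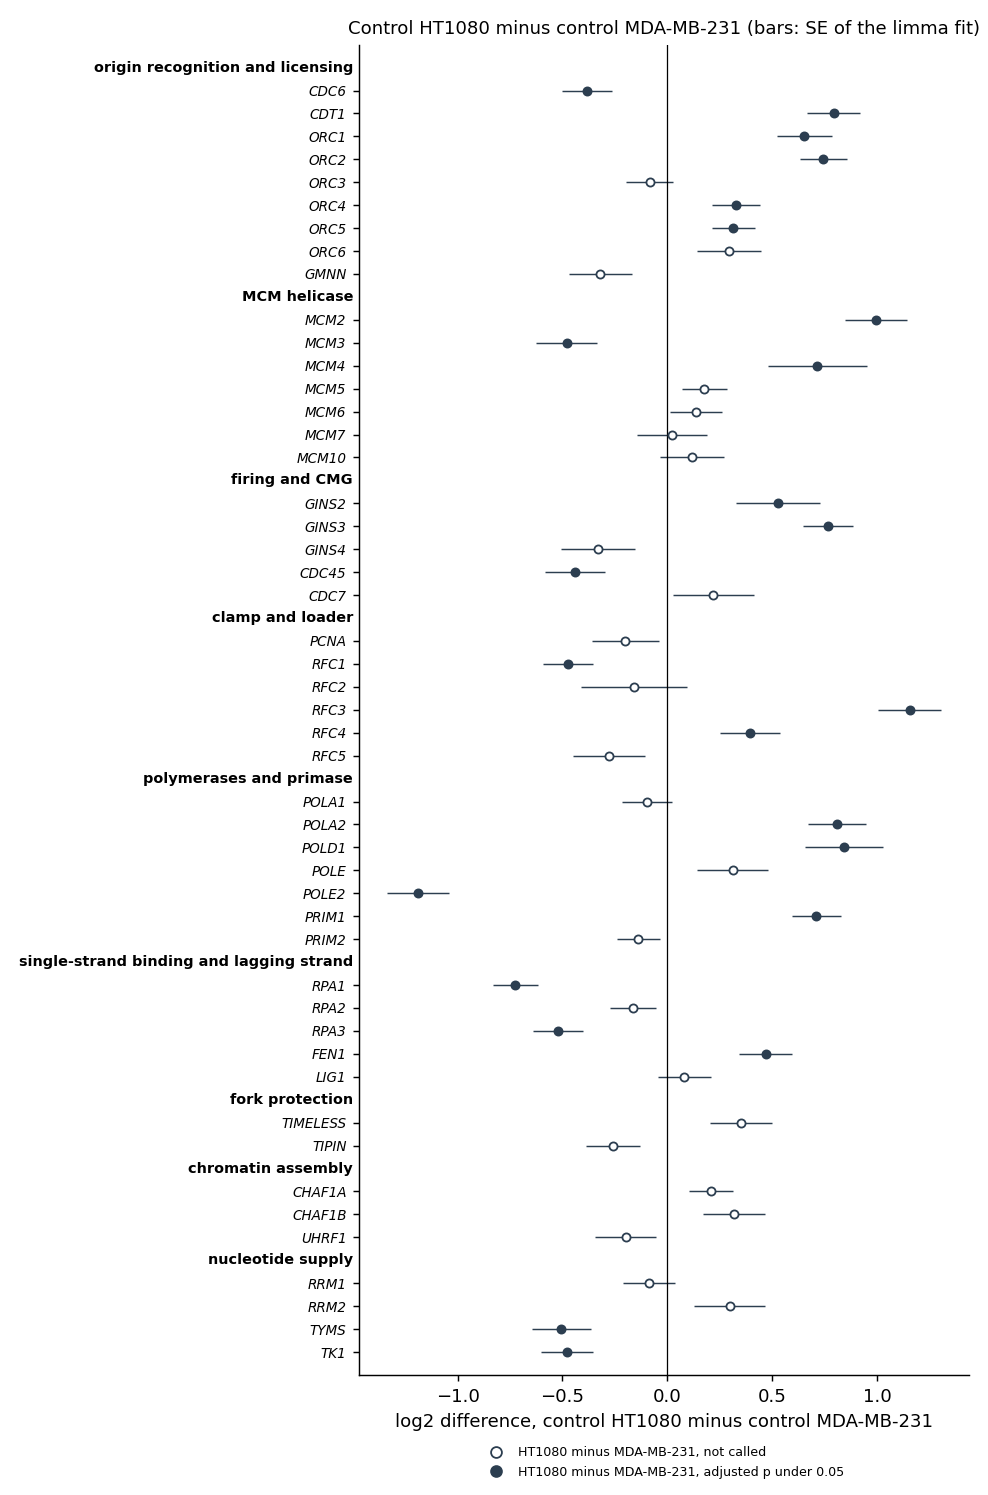
Log2 difference (control HT1080 minus control MDA-MB-231, horizontal axis) of the 48 tested genes by role, with the standard error of the limma fit as bars; filled points have an adjusted p under 0.05. RFC3 lies furthest right at 1.16 and POLE2 furthest left at -1.19.

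In the origin group, 5 genes were higher in HT1080 and 1 was lower. CDT1, the licensing factor, read 7.36 and 7.62 log2 in HT1080 against 6.76 and 6.63 in MDA-MB-231, a difference of 0.79 (limma adjusted p = 0.000501). ORC2 read 8.90 and 9.08 in HT1080 against 8.30 and 8.18 in MDA-MB-231, higher by 0.74, and ORC1 read 7.08 and 7.21 in HT1080 against 6.63 and 6.36 in MDA-MB-231, higher by 0.65. The groups did not overlap for any of these, which held for most genes. Both HT1080 control arrays lay above the MDA-MB-231 ones for 3661 of 9449 genes and below them for 3657. ORC4 read 6.56 and 6.69 in HT1080 against 6.29 and 6.30 in MDA-MB-231, and ORC5 8.76 and 8.78 in HT1080 against 8.50 and 8.41 in MDA-MB-231, with differences of 0.33 and 0.32. A second ORC5 probe differed by 0.20 and was not called. CDC6 was lower by 0.38, at 6.21 and 6.22 in HT1080 against 6.58 and 6.62 in MDA-MB-231.

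The helicase genes went both ways. MCM2 was higher in HT1080, at 9.00 and 9.11 log2 against 8.26 and 7.86 in MDA-MB-231, a difference of 1.0 (SE 0.15, limma adjusted p = 0.000314). MCM4 was higher by 0.72, at 9.50 and 9.58 in HT1080 against 9.21 and 8.44 in MDA-MB-231, and MCM3 was lower by 0.48, at 11.39 and 11.35 in HT1080 against 12.07 and 11.62 in MDA-MB-231. Replicates of MCM4 and MCM3 in MDA-MB-231 were far apart, with control array 1 the higher. MCM7 differed by 0.02 on its brightest probe and was not called, but its dimmest probe read 6.89 and 6.94 in HT1080 against 6.02 and 6.07 in MDA-MB-231, where it was under the filter level, and differed by 0.87 (limma adjusted p = 0.000117). The remaining MCM7 probe differed by 0.39 and was not called, and MCM7 was called higher when its probes were averaged. GINS3 was higher by 0.77, at 7.94 and 7.94 in HT1080 against 7.28 and 7.06 in MDA-MB-231. GINS2 was higher by 0.53, at 9.09 and 9.25 in HT1080 against 9.00 and 8.29 in MDA-MB-231. That call was narrow (limma adjusted p = 0.0484) and was lost in 8 of 14 alternatives. Without MDA-MB-231 control array 2 the GINS2 difference was 0.17 (limma adjusted p = 0.381), and without control array 1 it was 0.89. CDC45, the helicase partner, was lower by 0.44, at 8.62 and 8.50 in HT1080 against 9.14 and 8.86 in MDA-MB-231.

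The clamp loader and the polymerases held the widest differences. RFC3 read 8.31 and 8.58 log2 in HT1080 against 7.49 and 7.08 in MDA-MB-231, higher by 1.16 (SE 0.15, limma adjusted p = 0.000125), and its other probe was higher by 1.0. RFC4 was higher by 0.39, at 10.41 and 10.65 in HT1080 against 10.31 and 9.97 in MDA-MB-231, but its other probe differed by 0.05. RFC1 was lower by 0.47, at 7.81 and 7.95 in HT1080 against 8.34 and 8.36 in MDA-MB-231. POLE2, a subunit of polymerase epsilon, was lower in HT1080, at 7.54 and 7.73 in HT1080 against 9.02 and 8.62 in MDA-MB-231, a difference of -1.19 (SE 0.15, limma adjusted p = 9.66e-05), or 43.8% of the MDA-MB-231 signal. POLD1, the catalytic subunit of polymerase delta, was higher by 0.84, at 8.23 and 7.90 in HT1080 against 7.44 and 7.01 in MDA-MB-231. POLA2 was higher by 0.81, at 8.29 and 8.16 in HT1080 against 7.62 and 7.22 in MDA-MB-231, and PRIM1 by 0.71, at 9.31 and 9.38 in HT1080 against 8.77 and 8.50 in MDA-MB-231. POLE2 thus lay on the opposite side of POLD1 and POLA2.

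Of the single-strand binding genes, RPA1 was lower in HT1080 by 0.72, at 9.58 and 9.59 log2 against 10.33 and 10.29 in MDA-MB-231 (SE 0.11, limma adjusted p = 0.000336). RPA3 was lower by 0.52, at 10.67 and 10.54 in HT1080 against 11.19 and 11.07 in MDA-MB-231, and RPA2 was not called. FEN1 was higher by 0.47, at 10.96 and 10.95 in HT1080 against 10.59 and 10.38 in MDA-MB-231. TYMS was lower by 0.51, at 10.22 and 10.27 in HT1080 against 10.95 and 10.54 in MDA-MB-231, and TK1 by 0.48, at 9.32 and 9.38 in HT1080 against 9.95 and 9.69 in MDA-MB-231. Leaving out each array in turn, 12 of the 24 calls were kept every time: MCM2, GINS3, CDT1, ORC1, ORC2, RFC3, POLA2, POLD1, POLE2, PRIM1, RPA1 and RPA3.

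Replication genes outside the 52 were set beside them. Of 33 other replication genes, 28 were tested, none was called after siVRK1, and the median average change was -0.06. The lowest were RNASEH2A, a subunit of the nuclease that removes RNA from DNA, at -0.31, and ASF1B, a histone chaperone, at -0.27, and the highest were POLD4 at 0.19 and SUPT16H at 0.08. Among 13 E2F and RB family genes, 11 were tested and E2F5 was called. E2F5 fell in MDA-MB-231 by 0.56 (limma adjusted p = 0.0391) and on the average by 0.38 (limma adjusted p = 0.031). Both E2F5 calls were fragile: 10 of 14 alternatives lost the first, among them every single array left out, with limma adjusted p up to 0.306. The average change was -0.21 for E2F7, 0.15 for RBL2 and 0.10 for TFDP2. The 30 G2/M and mitosis genes had a median average change of -0.44, with 14 called lower, beside -0.11 and 3 of 48 for the replication genes. Of all genes tested, 1.58% were called lower on the average. That list was chosen with its values known, and the difference between the lists was not tested.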

How the data were processed

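Total RNA of 8 samples was hybridised to Illumina bead arrays, and the authors deposited 1 table of log2 intensities per probe and array. GenomeStudio was used per the submitters' processing notes; its version and the normalization are not given in the sources used here. Percentiles of the 8 columns differed by at most 0.00273, and the log2 values deposited by the authors were not normalized again. No detection p was used here, and signals still hold background, which makes changes of dim probes smaller; the number of arrays limits the precision. Symbols came from the platform annotation for 21834 of 24526 probes, all found in the RefSeq gene table.

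Probes were kept where the highest group mean reached 6.08 log2 (12263 probes), and the brightest kept probe stood for a gene (9449 genes). With limma 3.58.1 in R 4.3.3, group means over all 8 arrays were fitted (lmFit, eBayes; 4 residual and 5.86 prior degrees of freedom), tested two-sided and adjusted by Benjamini-Hochberg over all genes, with calls at adjusted p under 0.05. Every gene's adjusted p is from limma, SE is that of the fit, and the fit was tested on simulated data. Noise in those data was independent between genes, so that test does not cover a shift shared by many genes on a single array. An exact permutation test of 2 against 2 cannot go below 0.333 and was not used. Named are members called in any comparison, the 3 highest and 3 lowest by change, and for other lists called members and the 2 highest and 2 lowest by average change. Other members named, among them those with all siVRK1 arrays below control in both lines, were chosen after their values were seen. Members, lists and tests were chosen with earlier results of these data known. Alternatives were no filter, subtracted background, repeated quantile normalization, averaged probes, separate fits, a replicate block, and each array left out. Deviations of arrays with the same replicate number correlated at 0.485 between the MDA-MB-231 groups but at -0.0485 between the HT1080 groups; the numbers were not taken to pair samples.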

Additional observations from a re-analysis of the deposited data

How the results depend on the processing

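The limits are 2 arrays per group, 1 siRNA, signals on a scale with background included, and the gap between the 2 MDA-MB-231 control arrays. With the replicate number as a block common to both lines, 16 genes were called in HT1080 against 29 without it. The counts of replication genes called stayed at 1, 0, 3, 0 and 24 over the 5 comparisons. A common block cannot take up a replicate effect of a single line, so these counts do not test pairing within MDA-MB-231. Fitted alone, MDA-MB-231 gave 0 calls among replication genes and 0 among all genes (94 in the shared fit), and HT1080 gave 2 (GINS2 and MCM10) and 84. With background subtracted HT1080 gave 14 genes. Leaving out 1 array, replication genes called ranged from 0 to 2 in MDA-MB-231, 0 to 1 in HT1080, 0 to 4 on the average, 0 to 0 for the difference and 13 to 24 in the baseline. All genes called ranged from 10 to 108, 0 to 39, 23 to 273, 0 to 1 and 3869 to 5133 in the same order. Median changes ranged from -0.27 to -0.0098, -0.12 to -0.10, -0.16 to -0.06, -0.15 to 0.16 and -0.021 to 0.22. Signs turned for CHAF1B in MDA-MB-231 (-0.021 to 0.25 over single arrays left out) and MCM2 (-0.071 to 0.33), both without control array 2. They also turned for POLE in HT1080 (-0.13 to 0.30), at -0.05 without control array 1 and -0.13 without siVRK1 array 1, and for RFC3 on the average (-0.027 to 0.18), at -0.015 with averaged probes and -0.027 without MDA-MB-231 control array 2. Of the other alternatives for single genes 746 kept direction and side of the threshold, 94 lost and 5 gained a call. Results not called in the main fit had no call to lose, so the 746 do not measure how steady the calls were. PCNA in MDA-MB-231 kept its call in 7 alternatives and lost it in 7. On the average PCNA kept 10 and lost 3, GINS2 kept 7 and lost 6, and MCM10 kept 6 and lost 7. The cause of these changes was not tested.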

Other observations

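Control HT1080 also differed from control MDA-MB-231 in genes around the replication set. Of 28 other replication genes tested, 11 were called. MCMBP, which binds MCM proteins, was higher by 0.68 log2, CHTF18 by 0.51, POLE4 by 0.47, LRWD1 by 0.37, NASP by 0.32 and DNA2 by 0.27, while ASF1B was at -1.09, RNASEH2A at -0.84, POLE3 at -0.75 and WDHD1 at -0.70. MCM9 was called higher in HT1080 too, but its MDA-MB-231 arrays lay under the filter level, so no size is given. Among 23 other nucleotide supply genes 14 were called. The purine synthesis genes ATIC, GART and IMPDH2 were higher by 1.14, 1.06 and 0.95, RRM2B by 1.16, the pyrimidine synthesis genes CAD and CTPS1 by 0.75 and 0.70, NME1 by 0.46 and PRPS2 by 0.45. CTPS2 was at -0.83, SHMT1 at -0.76, CMPK1 at -0.71 and DCTD at -0.40. The mean of UMPS, called higher, was under the filter level in control MDA-MB-231, and that of TK2, called lower, in control HT1080. Of 11 E2F and RB family genes 8 were called, with E2F4 at 0.99, RBL2 at 0.59, TFDP1 at 0.57, E2F6 at 0.55, E2F3 at -0.34, E2F7 at -0.43, RBL1 at -0.61 and E2F5 at -0.76. All calls are limma calls at an adjusted p under 0.05, which 53.7% of all genes passed.

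Against 1.58% of all genes called lower, 14 of the 30 G2/M and mitosis genes fell on the average over both lines. They were NEK2 (-0.76), BIRC5 (-0.64), KIF2C (-0.61), CKAP2 (-0.60), AURKA (-0.58), CCNB2 (-0.55), KIF23 (-0.52), CDCA8 (-0.52), TTK (-0.50), CDC20 (-0.50), HMMR (-0.48), PTTG1 (-0.47), KIF20A (-0.45) and KIF11 (-0.43). NEK2 and CDC20 were called lower in MDA-MB-231, against 0.519% of all genes, and NEK2 in HT1080, against 0.222%. Between the control lines 12 differed, or 40%, against 53.7% of all genes tested. HMMR was higher in HT1080 by 2.18, and NEK2, NUSAP1, AURKA, CCNB1, KIF23, UBE2C, CDC25C, KIF2C, KIF11, PTTG1 and CENPE were lower, from -1.16 to -0.30.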
